A study of Mus musculus with 1536 samples.

Results

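The 7 genes described here, Htr7, Htr4, Htr6, Htr2a, Htr2b, Htr2c and Htr1f, are the serotonin receptor genes that were read in a small minority of single serotonin neurons of the mouse raphe. They are 7 of the 14 serotonin receptor genes examined and of 53263 genes in the table. They were chosen by the share of cells with at least 1 read, a share between 3 and 13 percent of 999 cells, so these shares and everything that follows from the same reads are given as descriptions with no test. The lowest share inside that range was 3.40% for Htr2a and the highest was 12.4% for Htr7. Just outside it lay Htr3a, a subunit of the serotonin-gated channel, at 0.801% (8 cells), and Htr5a at 29.2%. The other 5 receptor genes were Htr3b with a read in 1 cell and Htr5b, Htr1d, Htr1b and Htr1a, which were read in 39.3%, 72.4%, 80.9% and 94.5% of cells.

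All cells came from C57BL/6J mice 40 to 45 days old that carried Sert-Cre and the Ai14 reporter, in which Cre driven by the serotonin transporter gene switches on the red protein tdTomato. TdTomato-positive cells were sorted singly and each made into a full-length cDNA library with Smart-seq2, which has no molecular barcodes, so that values count reads and not molecules. The dissection of the principal dorsal raphe (pDR) gave 290 cells on 5 plates. A wider dissection, labelled as the whole dorsal raphe and which by the study's account also takes in the caudal dorsal raphe (cDR) and median raphe (MR), gave 709 cells on 11 plates. The study took several brains for each dissection, but the labels tie no cell to a brain, so either dissection was treated as 1 sample and no test was run, and plate and animal cannot be told apart. Median depth was 755925.5 reads on genes per cell in the pDR dissection and 869546 in the wider one, with a range of 96834 to 2780443 over all cells. Tph2, the enzyme that makes serotonin in neurons, was read in all 999 cells, which is no check of the sort if cells were kept for the table by their serotonin genes.

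Serotonin acts on its own neurons as well as on their targets. Htr4, Htr6 and Htr7 encode receptors that couple to Gs and raise cyclic AMP. Htr2a, Htr2b and Htr2c encode receptors that couple to Gq and phospholipase C, and Htr1f encodes a receptor that couples to Gi and lowers cyclic AMP, like the widely read autoreceptor genes Htr1a, Htr1b and Htr1d. Serotonin neurons of the raphe fall into molecular subtypes that differ in transmitter genes, peptides and transcription factors, and that differ in where their axons go, with targets shared between subtypes.

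Most cells had a read of none of the 7 genes. At least 1 of them was read in 425 cells (42.5%, exact Clopper-Pearson 95% interval 39.5 to 45.7%, which like all intervals here covers counting error only), 1 of them in 295 cells, a pair in 97 cells and 3 or more in 33 cells. No cell had more than 4. The median depth was 824938 reads in cells with none and 900016 reads in cells with 3 or more. The share of cells with at least 1 of the genes was 49.7% (43.8 to 55.6%) in the pDR dissection and 39.6% (36.0 to 43.3%) in the wider one.

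Among the Gs-coupled receptor genes, Htr7 had the largest share, 124 of 999 cells (12.4%, 10.4 to 14.6%). On the 5 pDR plates its share was 23.7%, 20.0%, 14.0%, 17.9% and 14.6%, and on the 11 plates of the wider dissection it ran from 0 over a median of 10.0% to 16.9%. Of those 11 plates, 9 lay below every pDR plate and 2 fell within the pDR range, so the plates of the dissections overlapped. Over cells the share was 19.3% (14.9 to 24.3%) in the pDR dissection and 9.59% (7.53 to 12.0%) in the wider one, a ratio of 0.497 (95% interval 0.358 to 0.688). Mean level went the other way, with 3.48 CPM (reads of a gene per fixed number of reads on genes) in the pDR dissection and 3.98 CPM in the wider one, so no order between the dissections is read for Htr7. The level in cells with a read had a median of 10.4 CPM in the pDR dissection and 22.9 CPM in the wider one.

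Htr6 was read in 118 cells (11.8%, 9.88 to 14.0%). Its share on the pDR plates was 15.1%, 22.4%, 14.0%, 17.9% and 12.2%, and on the plates of the wider dissection it ran from 0 over a median of 9.86% to 16.7%, with 9 of the 11 plates below every pDR plate. Here share and level pointed the same way. The share was 16.9% (12.8 to 21.7%) in the pDR dissection and 9.73% (7.65 to 12.2%) in the wider one, a ratio of 0.576 (0.410 to 0.809), and mean level was 1.47 and 0.804 CPM. With every cell thinned to 250000 reads, which left out 1 pDR cell and 8 cells of the wider dissection, the ratio was 0.503.

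Htr4 was read in 106 cells (10.6%, 8.77 to 12.7%) and at that call did not differ in share between the dissections beyond counting error, at 10.3% and 10.7% (ratio 1.04, 0.695 to 1.55). With at least 5 reads the ratio was 1.67. Plates spread widely. The pDR plates had 12.9%, 9.41%, 11.6%, 7.14% and 7.32%, and the other 11 ran from 1.92% over a median of 10.0% to 20.3%, with 3 plates above and 4 below all pDR plates.

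Of the Gq-coupled receptor genes, Htr2a was the rarest of the 7 genes and the one that leaned most to the wider dissection. It was read in 34 cells (3.40%, 2.37 to 4.72%), 3 of them from the pDR dissection (1.03%, 0.214 to 2.99%) and 31 from the wider one (4.37%, 2.99 to 6.15%). The pDR plates had 1.08%, 0, 2.33%, 0 and 2.44%, and 9 of the 11 other plates lay above all of them, with a range from 0 over 4.11% to 11.1%. The ratio of shares was 4.23 with a wide interval (1.30 to 13.7), since it rests on 3 pDR cells, and it was 3.16 in thinned cells, 2.59 with at least 5 reads and 2.45 with at least 10 CPM. Mean level was 0.226 CPM in the pDR dissection and 0.666 CPM in the wider one.

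Htr2c was read in 62 cells (6.21%, 4.79 to 7.89%), at 7.24% in the pDR dissection and 5.78% in the wider one (ratio 0.799, 0.481 to 1.33), while its mean level was 0.918 and 0.979 CPM, so no order is read for it either. Its pDR plates had 9.68%, 10.6%, 4.65%, 3.57% and 0, and the others ran from 0 over 5.48% to 11.7%. Htr2b was read in 51 cells (5.11%, 3.82 to 6.66%), at 5.52% and 4.94% in the dissections (ratio 0.895, 0.503 to 1.59). Its pDR plates had 5.38%, 8.24%, 6.98%, 0 and 2.44%, and the others ran from 1.30% over 3.95% to 9.62%. The plates of the dissections overlapped over most of their range for both genes.

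The Gi-coupled receptor gene Htr1f was read in 99 cells (9.91%, 8.13 to 11.9%), at 8.97% in the pDR dissection and 10.3% in the wider one (ratio 1.15, 0.750 to 1.76). The pDR plates had 6.45%, 11.8%, 4.65%, 17.9% and 7.32%, and the others ran from 2.63% over 12.5% to 15.5%, so the highest plate was a pDR plate. Plate 39 of the pDR dissection, which held 28 cells, gave that value from 5 cells.

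**Figure D1:**
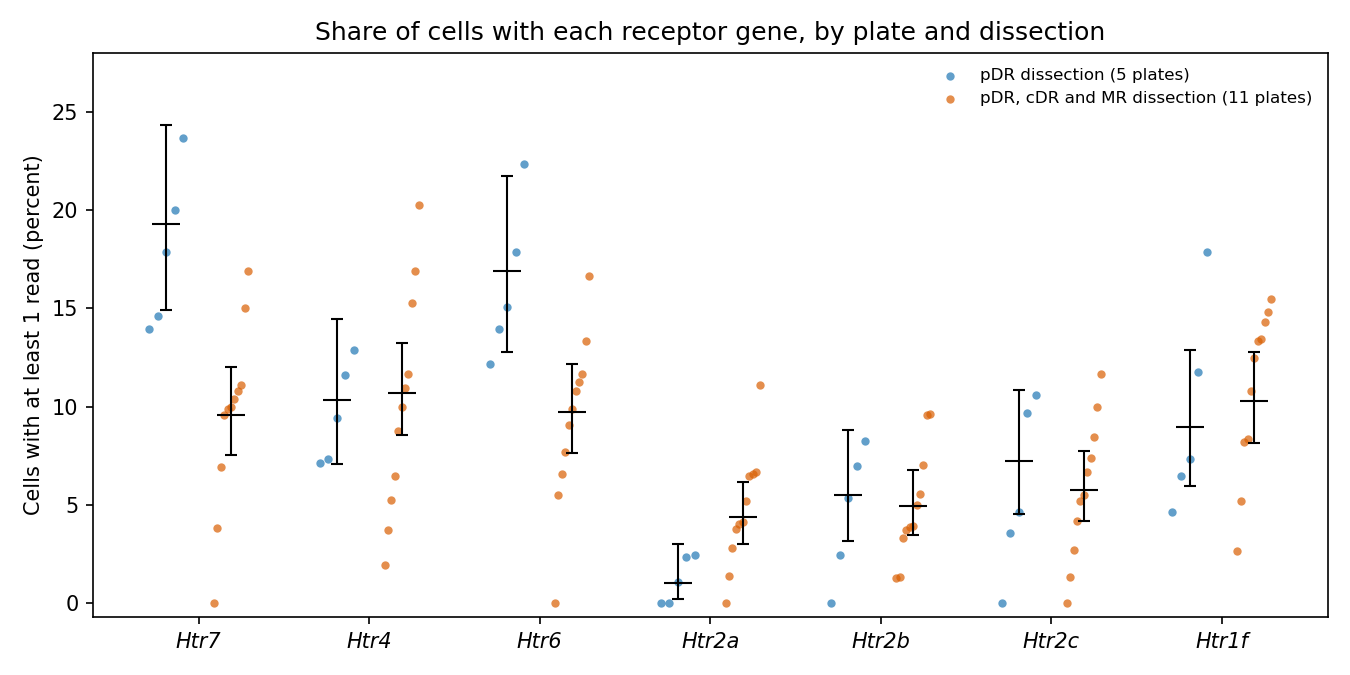
Percent of cells with at least 1 read of each receptor gene (y axis) on the 5 plates of the pDR dissection (blue points) and the 11 plates of the wider dissection (orange points), sorted from low to high. Horizontal lines are the share over all cells of a dissection and vertical bars its exact 95% interval. Most orange points lie below the blue ones for Htr7 and Htr6 and above them for Htr2a, and the plates of the dissections overlap for every gene.

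Few of the 7 genes passed the thresholds set for these contrasts, and the share of all genes that did is given beside them. With a log2 ratio of mean CPM of at least 1 (pseudocount 0.1 CPM) as the threshold, 1 of the 7 genes, Htr2a at 1.24, was higher in the wider dissection, as were 3.71% of 17566 genes read in at least 3 percent of cells. None was lower, against 5.64% of all genes. A share at least 2 times as high in the wider dissection was found for Htr2a (3.15% of all genes) and one at least 2 times as low for Htr7 (5.68% of all genes). Here and for the markers below, all genes had no upper limit of share, so they are not matched to the 7 rare genes. A gene read in nearly all cells cannot pass a ratio of 2 in share. None of the 7 had plates that did not overlap between the dissections, which 1.21% of all genes had with the wider dissection higher and 1.46% with it lower.

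In the cells that had a read, the level was taken in CPM, which is not corrected for gene length, so the values of different genes are not ranked. Htr7 had a median of 14.3 CPM in its cells (1.00 to 188 CPM) and Htr2a of 14.5 CPM (1.19 to 51.8). The median was 8.09 CPM for Htr2c (0.991 to 78.1), 2.12 CPM for Htr2b (0.542 to 18.7) and lay between these for the rest, with Htr6 at 7.26 CPM (0.461 to 29.0), Htr1f at 5.98 CPM (0.804 to 46.7) and Htr4 at 5.60 CPM (1.19 to 45.2). Per kilobase of exon these medians were 4.22 CPM for Htr7, 3.10 for Htr6, 2.59 for Htr2a, 2.32 for Htr1f, 1.14 for Htr4, 0.994 for Htr2b and 0.867 for Htr2c. A level of at least 50 CPM was reached by 25 Htr7 cells, 4 Htr2c cells, 1 Htr2a cell and no cell of the other 4 genes. Those 25 cells, 4 from the pDR dissection and 21 from the wider one on 12 plates in all, held 63.3% of the summed CPM of Htr7.

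Many positive cells rested on a few reads. Fewer than 5 reads were found in 24 of 124 Htr7 cells, 43 of 118 Htr6 cells, 50 of 106 Htr4 cells, 12 of 34 Htr2a cells, 25 of 62 Htr2c cells, 46 of 99 Htr1f cells and 38 of 51 Htr2b cells (74.5%). Cells with a read of Htr2b were deeper than cells without one, with median depths of 946162 and 815809 reads, and so were those of Htr1f, with 928556 and 815809 reads. Cells with Htr6 were deeper too, with 890870.5 and 816332 reads, while Htr4 (846849 and 822235) and Htr2a (827314 and 827283) differed less. Cells with Htr7 were shallower than those without, with 764476 and 842390 reads, and so were those of Htr2c, with 712209.5 and 839187 reads. The part of depth in these shares was not tested beyond the thinning.

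**Figure D2:**
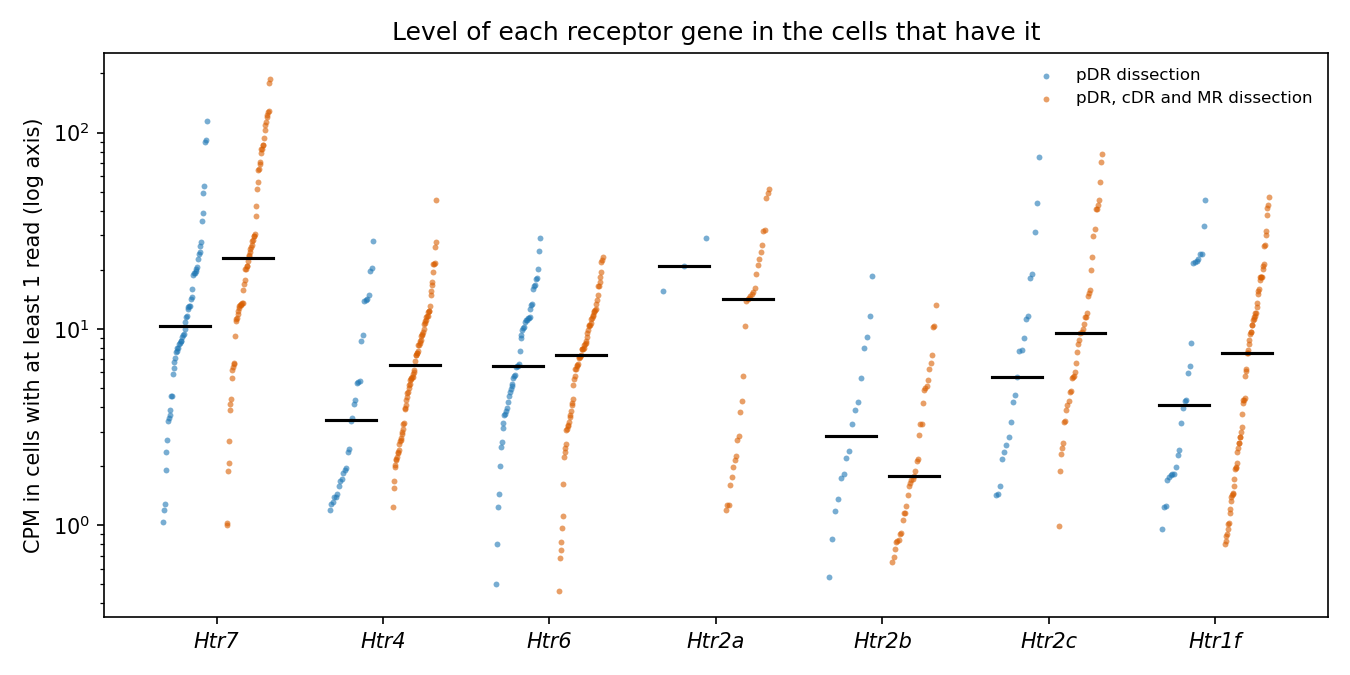
Level in CPM (log axis) of each receptor gene in every cell with at least 1 read, sorted from low to high within the pDR dissection (blue) and the wider dissection (orange). Black lines are medians. The Htr7 cells of the wider dissection reach 188 CPM with a median of 22.9, and the Htr2b cells have medians of 2.84 and 1.79 CPM. Levels are not corrected for gene length, so heights are compared within a gene only.

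Per kilobase of exon, which is the scale on which genes can be compared, mean level over all cells was 1.13 CPM per kb for Htr7, 0.426 for Htr6, 0.399 for Htr1f, 0.173 for Htr4, 0.103 for Htr2c, 0.0960 for Htr2a and 0.0901 for Htr2b. Of the 16 plates, 13 had Htr7 above Htr6, 14 had Htr1f above Htr4 and 12 had Htr4 above Htr2c. Htr6 lay above Htr1f on 7 plates, Htr2c above Htr2a on 7 and Htr2a above Htr2b on 10, so the neighbours Htr6 and Htr1f, and the 3 Gq-coupled receptor genes, do not differ beyond the spread between plates.

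The genes lie apart on the genome. By the coordinates of GENCODE M21 on the mm10 build (GRCm38), Htr7 is at chr19:35958734-36057507 on the minus strand, Htr4 at chr18:62324204-62496577 on the plus strand, Htr6 at chr4:139061108-139075570 on the minus strand, Htr2a at chr14:74640840-74709494 on the plus strand, Htr2b at chr1:86099026-86111970 on the minus strand, Htr2c at chrX:146962513-147197277 on the plus strand and Htr1f at chr16:64924729-65105854 on the minus strand. Htr2c spans 8 small RNA genes on its own strand, and whether any reads counted for it came from them was not tested. Htr2b lies within the span of Psmd1, a proteasome subunit gene on the opposite strand, and shares 252 of its 2131 exon bases with exons of Psmd1. The counting ignored strand, and Psmd1 was read in all 51 Htr2b cells and 99.5% of the others, with a mean of 296 CPM in Htr2b cells and 289 CPM in the rest. The levels of both genes had a Pearson r of 0.02 over 999 cells, and whether some reads counted for Htr2b came from Psmd1 was not tested.

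The label under which the 7 genes were put together calls them bound to subtypes. This was examined with 6 marker genes or gene pairs: Slc17a8, the vesicular glutamate transporter Vglut3 (649 cells with a read), Gad1 or Gad2, which make GABA (347 cells), the transcription factor genes Zeb2 (150 cells) and Irx2 (164 cells), the kainate receptor subunit gene Grik1 (179 cells) and the peptide gene Trh (138 cells). The markers overlap and are themselves unevenly dissected. Zeb2 was read in 3 pDR cells, Irx2 in 10 and Grik1 in 14, against 147, 154 and 165 cells of the wider dissection, while Trh was read in 98 pDR cells and 40 others, and 91.3% of Trh cells also had a Gad gene. In every marker class at least 1 of the 7 genes was read, and no gene was confined to one class. Of 42 pairs of receptor gene and marker, 4 had a share at least 2 times as high in marker-positive cells and 5 a share at least 2 times as low. At this call of 1 read, Htr2b and Htr1f were in none of these 9 pairs, so for them the label is not borne out by their shares over these markers. That changes with the call. With at least 5 reads Htr2b passed downward with Zeb2, and with at least 10 CPM it did so again and passed upward with Slc17a8, the Gad genes and Grik1, on 5 Htr2b cells, while Htr1f passed upward with Grik1 and downward with Trh.

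Of the 6 markers, Zeb2 had the highest and the lowest of the 42 ratios. Htr2a was read in 20 of 150 Zeb2-positive cells (13.3%, 8.34 to 19.8%) and in 14 of 849 others (1.65%, 0.904 to 2.75%), a ratio of 8.09, with a higher share on 9 of 11 plates that could be compared. Zeb2 cells nearly lacked Htr4, which was read in 1 of 150 (0.667%, 0.0169 to 3.66%) against 12.4% (10.2 to 14.8%) of other cells and was lower on 11 of 11 plates. Htr7 was read in 3 of 150 Zeb2 cells (2.00%, 0.414 to 5.73%) against 14.3% (12.0 to 16.8%), lower on 9 of 11 plates. Htr2c was read in 3.33% of Zeb2 cells (1.09 to 7.61%) and 6.71% of others (5.12 to 8.61%), lower on 7 of 11 plates, and its intervals overlap. Among all genes, 3.18% had a share at least 2 times as high in Zeb2 cells, where 1 of the 7 did, and 10.4% one at least 2 times as low, where 3 of the 7 did. By a log2 ratio of mean CPM of at least 1, Htr2a was higher (4.26% of all genes) and Htr7 and Htr4 were lower (9.99%).

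These Zeb2 contrasts held within the wider dissection, where nearly all Zeb2 cells lie. There Htr2a was read in 13.6% of Zeb2 cells and 1.96% of others, Htr4 in 0.680% and 13.3%, and Htr7 in 1.36% and 11.7%. Mean levels ran alike, at 2.13 and 0.282 CPM for Htr2a, 0.0202 and 1.15 CPM for Htr4, and 0.110 and 4.99 CPM for Htr7. The 3 Zeb2 cells of the pDR dissection are too few to compare.

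Trh cells, most of which came from the pDR dissection, set Htr4 and Htr6 apart. Htr4 was read in 4 of 138 Trh cells (2.90%, 0.795 to 7.26%) against 11.8% (9.76 to 14.2%) of the rest and was lower on 10 of 10 plates, with 2.04% and 14.6% in the pDR dissection and 5.00% and 11.1% in the wider one. Htr6 was read in 30 Trh cells (21.7%, 15.2 to 29.6%) against 10.2% (8.28 to 12.4%) and was higher on 8 of 10 plates. Within dissections the Htr6 shares were 22.4% and 14.1% in the pDR dissection and 20.0% and 9.12% in the wider one. A share at least 2 times as high in Trh cells was found for 4.1% of all genes and one at least 2 times as low for 4.22%, each for 1 of the 7. By mean CPM, Htr6 was past the log2 threshold upward (3.9% of all genes) and Htr4 and Htr1f downward (5.42%).

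Htr7 and the Gad genes met mainly in the pDR dissection. Over all cells Htr7 was read in 18.4% (14.5 to 22.9%) of Gad-positive and 9.20% (7.10 to 11.7%) of Gad-negative cells, a ratio of 2.00, which was under 2 without any 1 of 8 of the 16 plates (lowest 1.73, without SER13), with 5 reads (1.88) and with 10 CPM (1.70). By this ratio 1 of the 7 genes and 2.38% of all genes passed upward and none of the 7 and 1.62% of all genes downward. In the pDR dissection the shares were 24.0% and 11.2%, higher in Gad cells on 5 of 5 plates, and in the wider one 12.2% and 8.81%, higher on 8 of 11 plates. Mean level in the pDR dissection was nearly equal, at 3.55 CPM in Gad-positive and 3.37 CPM in Gad-negative cells. None of the 7 passed a log2 ratio of 1 in either direction, against 3.09% of all genes higher and 1.4% lower.

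At the call of 1 read, Slc17a8 cells showed no pair past the ratio of 2 over all cells, where 2.11% of all genes passed it upward and 1.52% downward. Htr2a passed it upward with at least 5 reads, with at least 10 CPM, in thinned cells and without plate SER60. Htr2b did so with at least 10 CPM. By mean CPM, Htr2a was past the log2 threshold upward (1.75% of all genes) and none downward (2.23%). In the wider dissection Htr6 was read in 12.4% (9.65 to 15.5%) of Slc17a8-positive and 2.62% (0.855 to 6.00%) of Slc17a8-negative cells, higher on 10 of 11 plates and lower on none, while in the pDR dissection the shares were 18.3% and 15.7%. By both transmitter markers, Htr6 was read in 12.3% of cells with Slc17a8 only, 13.3% with a Gad gene only, 18.4% with both and 1.44% (2 of 139 cells, 0.175 to 5.10%) with neither. For Htr4 the observed shares had opposite orders in the dissections. It was read in 16.0% (10.2 to 23.5%) of Slc17a8-positive and 5.66% (2.62 to 10.5%) of negative pDR cells, higher on 5 of 5 plates, and in 9.65% and 13.6% of cells of the wider dissection, lower on 8 of 11 plates. That difference between dissections was not tested, and no turn in direction is read from these values. Htr1f had 12.2% and 6.29% in the pDR dissection, again higher on 5 of 5 plates, and 10.6% and 9.42% in the wider one.

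Grik1 and Irx2 cells came almost all from the wider dissection. Htr6 was low in Grik1 cells, read in 9 of 179 (5.03%, 2.32 to 9.33%) against 13.3% (11.0 to 15.8%), lower on 10 of 12 plates, where 1 of the 7 genes and 5% of all genes passed the ratio of 2 downward. Htr2a passed it upward, at 6.15% (3.11 to 10.7%) and 2.80% (1.79 to 4.18%), as did 0.649% of all genes, and within the wider dissection its shares were 6.67% and 3.68%. Htr2c was read in 9.70% of Grik1-positive and 4.60% of Grik1-negative cells of the wider dissection, higher on 8 of 11 plates, with mean levels of 2.47 and 0.525 CPM. By Irx2 none of the 7 shares passed the ratio in either direction at the call of 1 read (0.962% of all genes upward, 6.34% downward). With at least 5 reads, at least 10 CPM or a marker called from 10 CPM, Htr2c passed upward with Irx2 and with Grik1. With Irx2, Htr4 passed upward with at least 10 CPM and Htr6 downward in thinned cells. Within the wider dissection Htr2c was read in 10.4% of Irx2-positive cells, 2.31 times its share in Irx2-negative cells and higher on 7 of 11 plates, and Htr6 was read in 7.14% and 10.5%, lower on 7 of 11 plates. Mean Htr2c in the wider dissection was 2.32 CPM in Irx2-positive and 0.605 CPM in Irx2-negative cells, and mean Htr7 was 7.72 and 2.94 CPM. By mean CPM over all cells, Htr7 and Htr2c were past the log2 threshold upward for Irx2 (2.09% of all genes) and none downward (4.77%), and Htr7, Htr2c and Htr1f upward for Grik1 (1.5%) and Htr6 downward (3.48%). The shares of Htr7 over all cells ran slightly the other way, at 12.2% and 12.5% for Irx2 and 10.6% and 12.8% for Grik1, so no order is read for it there. These shares pool dissections that differ in gene and marker alike. In the pDR and the wider dissection Htr7 was read in 19.3% and 9.59% of cells, Grik1 in 4.83% and 23.3%, and Irx2 in 3.45% and 21.7%.

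**Figure D3:**
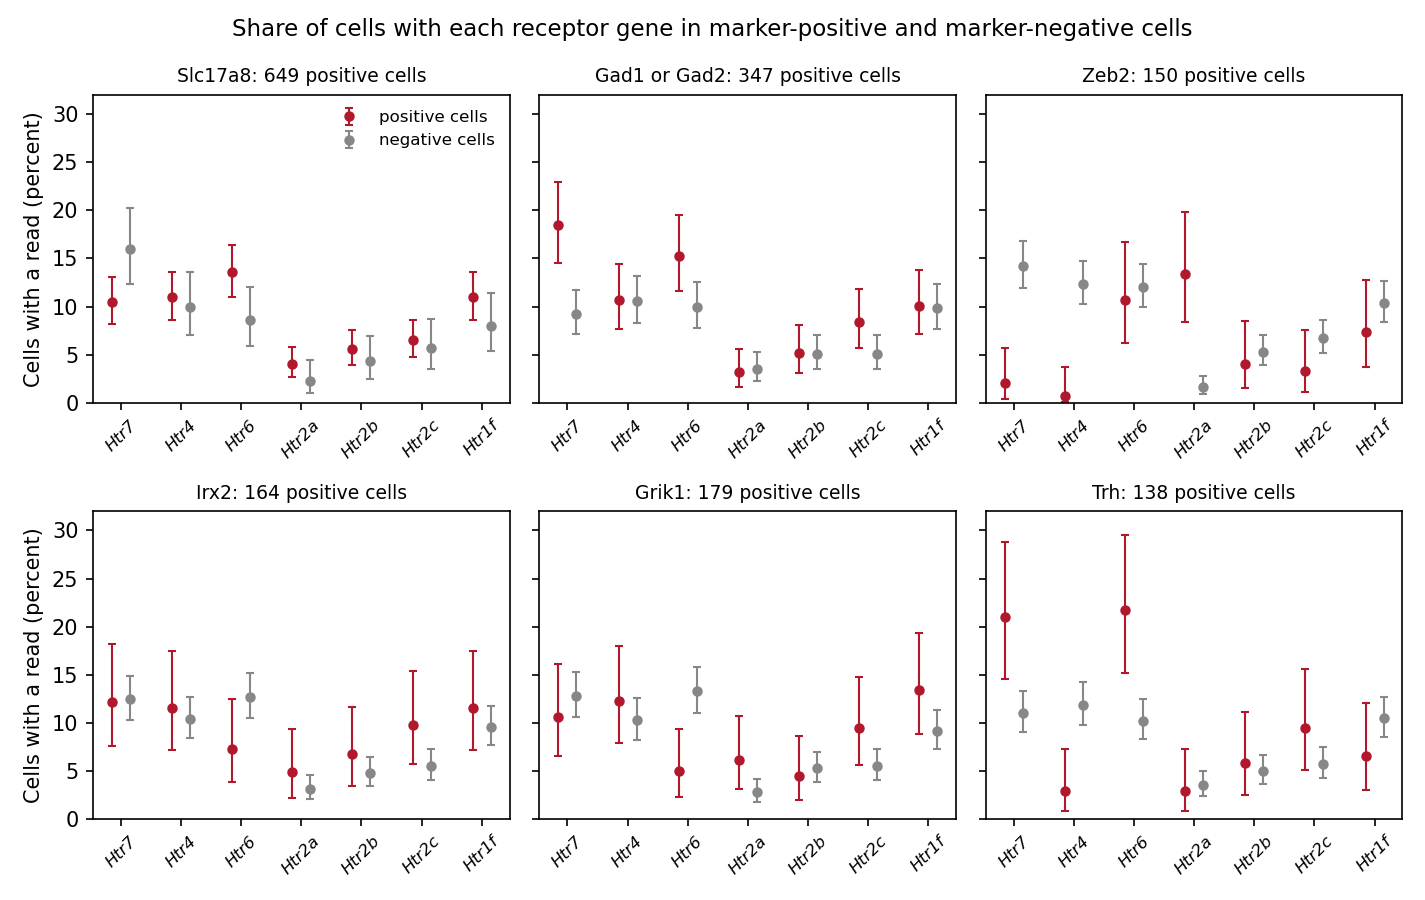
Percent of cells with a read of each receptor gene (y axis) in cells with at least 1 read of the marker named above each panel (red) and in cells without (grey), over all 999 cells. Points are shares and bars exact 95% intervals. In Zeb2 cells Htr2a is at 13.3% and Htr7 and Htr4 are at 2.00% and 0.667%, and in Trh cells Htr6 is at 21.7% and Htr4 at 2.90%.

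The receptor genes met one another unevenly. Of their 21 pairs, Htr7 and Htr2c shared the most cells, 31, which is 25.0% of the Htr7 cells and 50.0% of the Htr2c cells, where the product of both shares over 999 cells is 7.70 cells. Their levels had an r of 0.36 over the 999 cells, which share plates and depth. Next came Htr7 with Htr6 and with Htr1f, 25 cells each (products 14.6 and 12.3), and Htr7 with Htr4, 21 cells (product 13.2). Htr4 and Htr2a shared no cell, which allows up to 8.82% of the 34 Htr2a cells, and Htr2b and Htr2c shared none, which allows up to 5.88% of the 51 Htr2b cells. Products of 3.61 and 3.16 cells stand beside those zeros.

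The 31 cells with both Htr7 and Htr2c came from 11 plates, 22 from the wider dissection and 9 from the pDR dissection, and had a median of 26.6 CPM of Htr7 and 9.52 CPM of Htr2c. In the 93 cells with Htr7 only, its median was 13.2 CPM, and in the 31 cells with Htr2c only that of Htr2c was 6.70 CPM. The neuromedin B receptor gene Nmbr was read in 14 of the 31 shared cells (45.2%, 27.3 to 64.0%), in 8 cells with Htr7 only (8.60%, 3.79 to 16.2%), in 0 of 31 with Htr2c only (up to 9.68%) and in 3.32% of cells with neither. The cannabinoid receptor gene Cnr1 was read in 29 of the 31 shared cells, and Erbb4, a receptor for neuregulins, in 26. Htr1f was read in 10 of them (32.3%, 16.7 to 51.4%) and in 8.53% of cells with neither gene.

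Promoter sequence was available in RefSeq (GRCm38.p6) for 6 of the 7 genes, and the stretches of Htr7 and Htr2c are shown because this pair is read together most often. Each is printed 5′ to 3′ on the strand of its gene, from at most 250 bases before the RefSeq start to the base before the outermost gene start in GENCODE, with every CG in capitals. The first is at chr19:36057508-36057610 on the minus strand (103 bases) and the second at chrX:146962263-146962512 on the plus strand (250 bases).
Htr7: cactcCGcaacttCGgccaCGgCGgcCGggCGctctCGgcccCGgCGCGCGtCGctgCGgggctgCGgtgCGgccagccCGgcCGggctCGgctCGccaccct
Htr2c: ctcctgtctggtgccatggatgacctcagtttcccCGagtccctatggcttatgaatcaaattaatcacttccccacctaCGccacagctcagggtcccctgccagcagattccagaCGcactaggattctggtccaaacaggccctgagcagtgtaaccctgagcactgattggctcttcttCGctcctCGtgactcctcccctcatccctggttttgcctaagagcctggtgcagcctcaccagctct
The pair differs widely in CG content. Over the full 250 bases before the RefSeq start, Htr7 has 41 CG, more than 98.9% of 32851 promoters, and Htr2c has 5, more than 44.4%, with a median of 6 over all promoters. Htr6 has 23 and 9 at its 2 starts, Htr1f 7, Htr2a 4 and Htr2b 3. The motif CACCTG, which Zeb2 is known to bind, was searched on both strands and was found in 17.2% of all promoters and, among those of the 6 genes, in 1 of the Htr6 promoters only. CCGGAA, a core of the sites bound by ETS factors, was found in 12.0% of all promoters and in none of these. This is a description of sequence and says nothing of binding.

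The genes whose levels ran most like each receptor gene were sought among 11518 genes with a mean over 2 CPM, by Pearson r of ln(CPM + 1) over all cells, which share plates, depth and dissection. An r of at least 0.2 was reached by 78 genes with Htr7 (0.677% of the genes), 27 with Htr2c (0.234%), 8 with Htr1f (0.0695%), 3 with Htr4 (0.026%), 1 with Htr2a (0.00868%) and none with Htr6 or Htr2b, whose highest r were 0.17 and 0.15. For Htr7 the 5 highest were Cnr1 (r = 0.45), Erbb4 (0.43), the zinc finger gene Zfp536 (0.43), Nmbr (0.40) and the protocadherin gene Pcdh11x (0.39). For Htr2c they were Erbb4 (0.37), Htr7 (0.36), Nmbr (0.33), Tent5a, which encodes a terminal nucleotidyltransferase (0.32), and Zfp536 (0.30). The lists of Htr7 and Htr2c thus hold 3 genes in common.

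The r of Htr7 came mostly from the wider dissection. With Zfp536 it was 0.60 there and 0.14 in the pDR dissection, with Cnr1 0.54 and 0.25, and with Nmbr 0.51 and -0.05. In the wider dissection Htr7 was read in 42 of 76 Zfp536-positive cells (55.3%, 43.4 to 66.7%) and 4.11% of the others, in 43 of 88 Erbb4-positive cells (48.9%, 38.1 to 59.8%) and 4.03% of the others, and in 22 of 46 Nmbr-positive cells (47.8%, 32.9 to 63.1%) and 6.94% of the others. In the pDR dissection Nmbr was read in 4 cells, none of which had Htr7. Cnr1 also marked Htr7 cells there, with Htr7 in 36.8% (25.4 to 49.3%) of 68 Cnr1-positive and 14.0% of Cnr1-negative pDR cells. Erbb4 and Htr2c went together in both dissections, with Htr2c in 22.7% and 2.68% of Erbb4-positive and Erbb4-negative pDR cells and in 29.5% and 2.41% of those of the wider dissection.

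For the other genes the r were weak. With Htr1f they were 0.26 for Tent5a, 0.25 for Nrp2, a semaphorin receptor, 0.25 for Cckar, a cholecystokinin receptor, 0.24 for Tmeff2 and 0.22 for Pdlim5. In the wider dissection Htr1f was read in 24 of 66 Cckar-positive cells (36.4%, 24.9 to 49.1%) and 7.62% of others, and in the pDR dissection in 7 of 27 (25.9%, 11.1 to 46.3%) and 7.22%. With Htr4 they were 0.23 for Epha5, an ephrin receptor, 0.21 for the protocadherin gene Pcdh7 and 0.21 for X1190002N15Rik (1190002N15Rik, with the X that the table puts before a digit). Epha5 was read in 104 of the 106 Htr4 cells and 75.6% of other cells. With Htr2a the only one was Zeb2 (0.21).

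**Figure D4:**
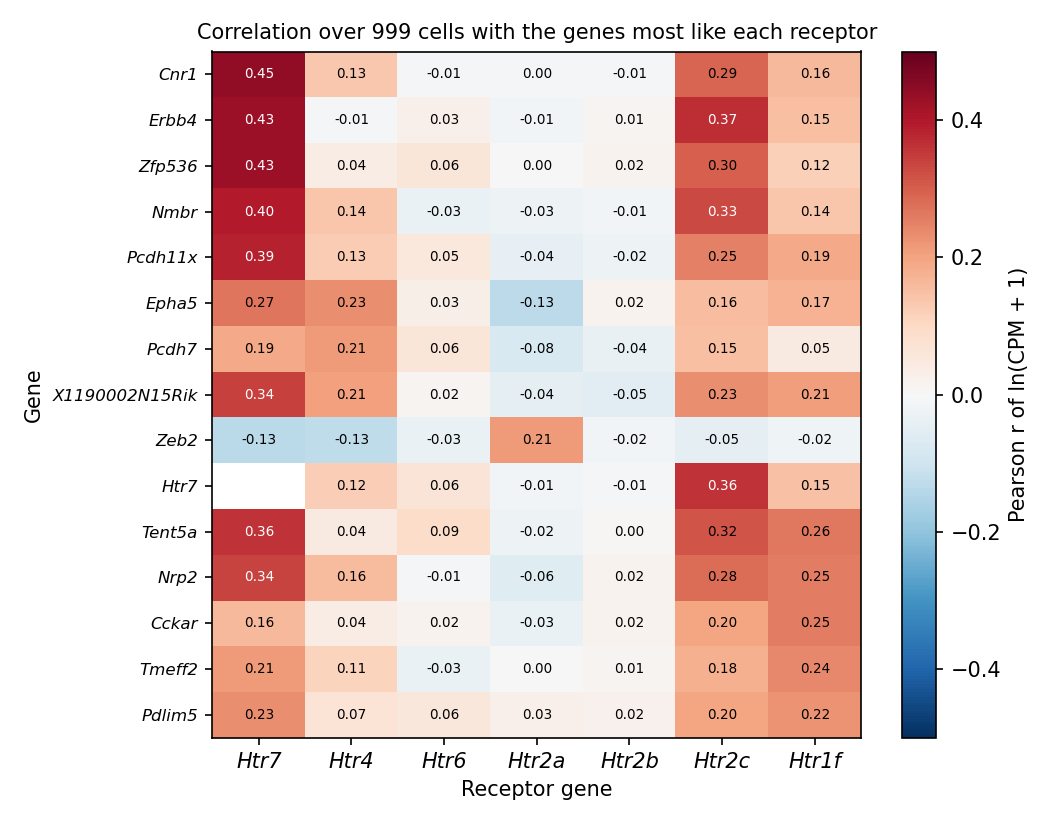
Pearson r of ln(CPM + 1) over 999 cells between each receptor gene (columns) and the genes most like any of them (rows), from blue (negative) to red (positive). The cell of a gene with itself is blank. Htr7 and Htr2c share high values with Cnr1, Erbb4, Zfp536 and Nmbr, up to 0.45, and the columns of Htr6 and Htr2b stay near 0.

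Known marker genes of raphe serotonin subtypes, 34 in all, were compared between cells with and without each receptor gene, as the log2 ratio of mean CPM with a threshold of 1. For Htr7, 7 of the 34 were higher and 12 lower (3.27% and 3.6% of all genes tested), with a list median of 0.20 against 0.02 over all genes. For Htr4, 5 were higher and 9 lower (1.28% and 3.57%), and for Htr6, 2 higher and 5 lower (0.922% and 2.03%). For Htr2a, 7 were higher and 12 lower (3.69% and 10.9%), for Htr2c, 6 and 10 (4.44% and 5.48%), for Htr1f, 5 and 3 (1.75% and 3.07%), and for Htr2b, 0 and 2 (1.71% and 5.29%). The markers were picked by the study on these cells for differing between its subtypes and are no independent evidence.

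Htr7 cells rarely had Met, Piezo2 or Zeb2. Met, which encodes the hepatocyte growth factor receptor, was read in 0 of 124 Htr7 cells, which allows up to 2.42%, against 13.5% of other cells. Piezo2, a mechanosensitive channel, was read in 7 Htr7 cells (5.65%) against 14.2%, and Zeb2 in 3 (2.42%) against 16.8%. Nmbr was read in 22 (17.7%) against 3.20%, at a mean of 14.6 and 0.502 CPM, and all 22 were cells of the wider dissection. Grik1 was read in nearly the same share of both (15.3% and 18.3%) at very different mean levels (51.1 and 5.13 CPM), and its 19 Htr7 cells were all from the wider dissection too. For 12 of the 19 markers past the threshold, the sign of the ratio was the same in both dissections.

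Htr4 cells nearly lacked the same genes. Piezo2 and Zeb2 were each read in 1 of 106 Htr4 cells (0.943%), against 14.6% and 16.7% of the rest, and Met in 0 of 106 (up to 2.83%) against 13.2%. Trh was read in 4 Htr4 cells (3.77%) against 15.0%, and Crh, the corticotropin-releasing hormone gene, in 21 (19.8%) against 6.61%. Crh was higher in Htr4 cells of both dissections, with 33.3% and 11.9% of cells in the pDR dissection and 14.5% and 4.42% in the wider one. The sign was the same in both dissections for 13 of 14 markers past the threshold.

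Htr6 cells differed less. Grik1 was read in 7.63% of Htr6 cells and 19.3% of others, and Pth2r, a parathyroid hormone receptor gene, in 11.0% and 23.8%. Npas1, a transcription factor gene, was read in 6.78% and 9.53%, the neurokinin receptor gene Tacr3 in 4.24% and 5.90%, and Nmbr in 4.24% and 5.11%. All 7 markers past the threshold had the same sign in both dissections.

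The 34 Htr2a cells held no read of Npas1 or C1ql2 (up to 8.82% for either), against 9.53% and 4.04% of other cells. Sox14, a transcription factor gene, was read in 1 of them (2.94%) against 16.1%, the orexin receptor gene Hcrtr2 in 5 (14.7%) against 51.1%, and Crh in 1 against 8.19%. Zeb2 was read in 20 (58.8%) against 13.5%. The sign was the same in both dissections for 15 of 19 markers, with only 3 cells in the pDR dissection.

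Htr2c cells had Nmbr more often than other cells, but only where Htr7 was read too. Nmbr was read in 22.6% of Htr2c cells and 3.84% of others, and Grik1 in 27.4% and 17.3%. Piezo2 was read in 2 of 62 Htr2c cells (3.23%) against 13.8%, the oxytocin receptor gene Oxtr in 16.1% and 47.2%, and Crhr2, a receptor for corticotropin-releasing hormone and urocortins, in 22.6% and 41.8%. All 14 Htr2c cells with Nmbr came from the wider dissection and all also had Htr7. Nmbr was read in 0 of the 31 Htr2c cells without Htr7.

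Htr1f cells were low in Pth2r, which was read in 4 of 99 (4.04%) against 24.3% of others, with 0 of 26 and 9.85% in the pDR dissection and 5.48% and 30.3% in the wider one, and was lower on 10 of 10 plates. The neuropeptide Y receptor gene Npy2r was read in 48.5% and 24.1%, with 61.5% and 33.7% in the pDR dissection and 43.8% and 20.1% in the wider one. Nmbr was read in 12.1% and 4.22%, Grik1 in 24.2% and 17.2% and C1ql2 in 6.06% and 3.67%. For Htr2b the markers past the threshold were Syt2, a synaptotagmin (7.84% and 16.6%), and Grik1 (15.7% and 18.0%), the second with opposite signs in the dissections.

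**Figure D5:**
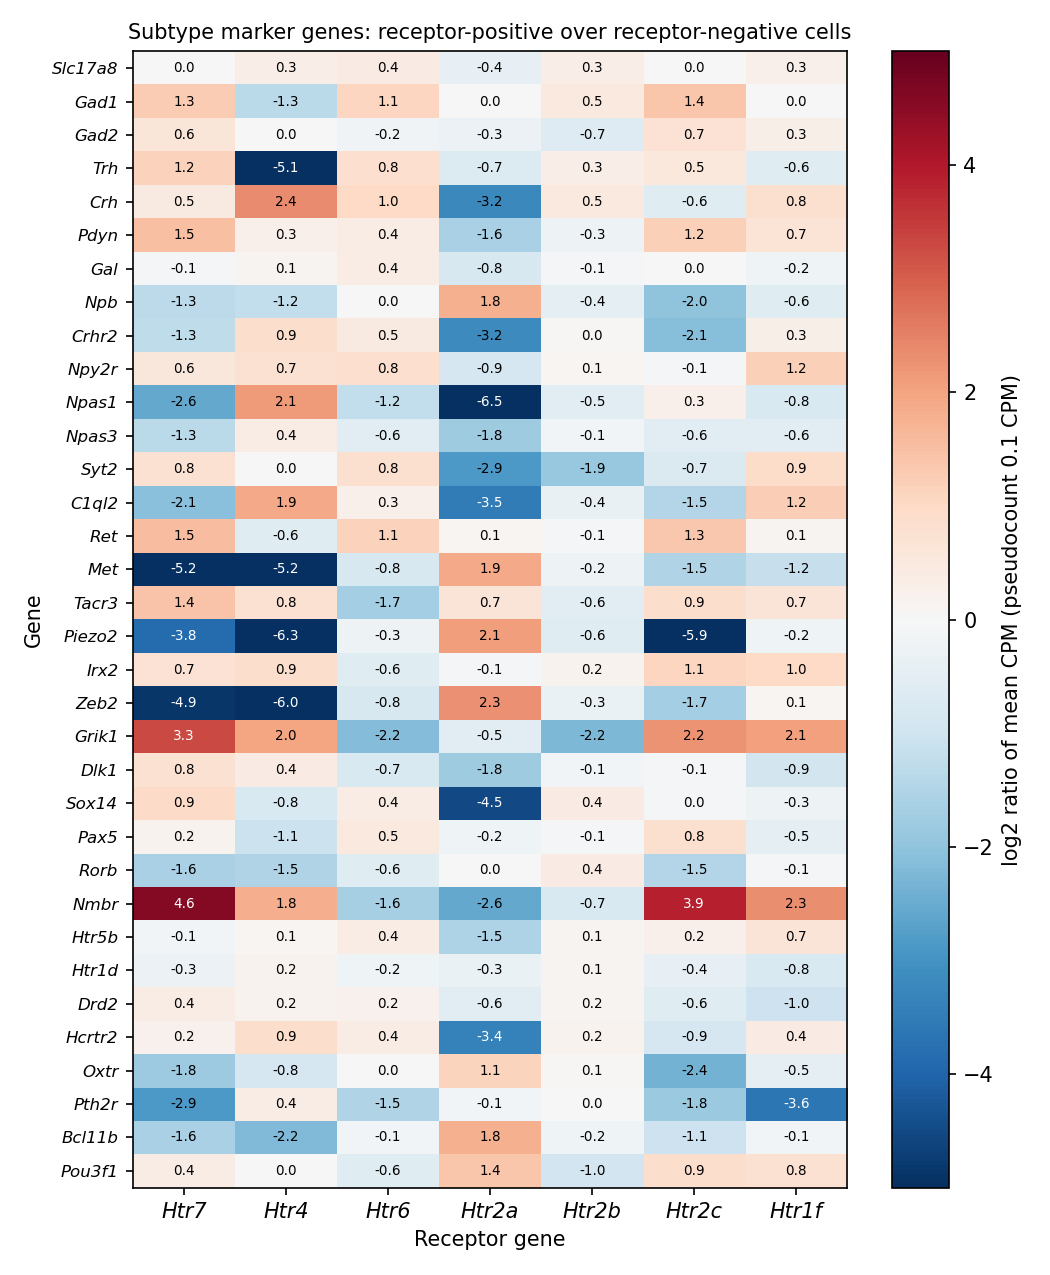
Log2 ratio of mean CPM (pseudocount 0.1 CPM) of 34 subtype marker genes (rows) in cells with a read of each receptor gene over cells without (columns), from blue (lower) to red (higher), with colours saturated beyond 5. Where 1 side has no read, such as Met in Htr7 and Htr4 cells, the value depends on the pseudocount. Met, Piezo2 and Zeb2 are blue for Htr7, Htr4 and Htr2c and red for Htr2a, and Nmbr is at 4.6 for Htr7 and 3.9 for Htr2c.

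Genes of the pathways that these receptors use, 41 tested genes for G proteins, adenylyl cyclases, phospholipases and their partners, were counted in the same way. For Htr7, 4 were higher (9.76% of the list, 3.27% of all genes) and 2 lower (4.88%, 3.6%), and for Htr2a, 5 were higher (12.2%, 3.69%) and 4 lower (9.76%, 10.9%). For Htr4, 2 were higher (4.88%, 1.28%) and 3 lower (7.32%, 3.57%), for Htr1f, 3 higher (7.32%, 1.75%) and 0 lower (3.07% of all genes), and for Htr2c, 2 each way (4.88%, against 4.44% higher and 5.48% lower). For Htr2b, 0 were higher (1.71% of all genes) and 3 lower (7.32%, 5.29%), and for Htr6, 0 higher (0.922%) and 1 lower (2.44%, 2.03%). List medians lay within 0.04 of 0. Rapgef3, an exchange factor that cyclic AMP activates directly, was read in 33.9% of Htr2c cells and 10.4% of others (log2 2.37, positive in both dissections and on 5 of 5 plates), 26.3% and 10.2% for Htr1f (1.36), 23.6% and 10.4% for Htr4 (1.25) and 21.0% and 10.5% for Htr7 (1.71). Adcy2, an adenylyl cyclase, had a mean of 85.1 CPM in Htr7 cells and 32.1 CPM in others, 89.1 and 35.3 CPM for Htr2c, and 76.5 and 34.5 CPM for Htr1f, the last higher on 10 of 10 plates. Plcb3, a phospholipase that Gq activates, was read in 35.3% of Htr2a cells and 11.8% of others but in 3.77% and 13.7% for Htr4 and 3.23% and 13.2% for Htr2c. In Htr6 cells only Adcy8 passed, at 1.77 and 4.40 CPM.

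Of the other serotonin receptor genes, 5 were tested, and by mean CPM none passed the threshold for 6 of the 7 genes. For Htr2a, Htr1b fell past it, with 12.7 CPM in Htr2a cells and 29.3 CPM in others, and so did Htr5b, with 11.3 and 32.8 CPM, the latter with opposite signs in the dissections. Shares of cells still differed for some of these genes. Htr1d was read in 35.3% of Htr2a cells and 73.7% of others, and Htr1b in 52.9% and 81.9%. For Htr1f, Htr1d was read in 58.6% and 73.9% and Htr5b in 59.6% and 37.1%. For Htr6, Htr5b was read in 53.4% and 37.5%. None of Tph2, Fev, Slc6a4 and Slc18a2, the genes that define a serotonin neuron, passed it for any of the 7. Of 6 immediate-early genes, Egr1 was past the threshold upward in Htr7 cells (33.2 and 10.7 CPM, with 3.27% of all genes past it) and Htr2c cells (40.3 and 11.7 CPM, 4.44%). The sign of both ratios was the same in both dissections. Of the 62 Htr2c cells 31 also had Htr7, so the values for these genes rest in part on the same cells. The list median was 0.61 for Htr7 against 0.02 over all genes and 0.74 for Htr2c against 0.00. Npas4 was past it downward in Htr2b cells (0.728 and 2.18 CPM, 5.29%).

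Markers of other cells moved with several of the receptor genes. The summed level of 5 oligodendrocyte genes had a median between 16.3 and 33.1 CPM in the cells of the 7 genes and between 23.5 and 25.3 CPM in the cells without them, and was higher in the cells with the receptor for Htr2c (33.1 and 23.5), Htr2a (32.2 and 24.1) and Htr6 (25.2 and 24.1). By mean CPM, none of the 4 tested oligodendrocyte genes was past the threshold upward for any receptor gene (0.922% to 4.44% of all genes). Between 1 and 4 were past it downward for every receptor gene (2.03% to 10.9% of all genes). The highest summed level was 627 CPM in receptor-positive cells, while 1 cell with none of the 7 genes reached 77436 CPM. That cell enters the mean of the receptor-negative cells for every gene, and its part in the downward counts was not tested. The summed levels of the lists for astrocytes, microglia, endothelium, choroid plexus, fibroblasts and other neurons, 5 genes each, had a median of 0 on both sides for all 7 genes, and that for ependyma had medians of 0 except 0.898 CPM in Htr7 cells. Single genes of these lists were higher in Htr7 cells, namely 2 of 4 tested astrocyte genes (Gja1 at 4.27 and 1.49 CPM, Aldh1l1 at 1.35 and 0.355 CPM), the endothelial gene Ly6c1 (1.38 and 0.420 CPM), Kl of the choroid plexus list (1.59 and 0.515 CPM) and Dynlrb2 of the ependyma list (8.54 and 2.81 CPM). The other 2 tested astrocyte genes, Slc1a3 and Aqp4, were past the threshold downward in Htr7 cells, so the list had no single direction there. In Htr2c cells Gja1 (6.74 and 1.51 CPM), Kl (2.59 and 0.519 CPM) and Dynlrb2 were higher, in Htr1f cells Gja1 (4.54 and 1.54 CPM) and Aldh1l1 (1.49 and 0.367 CPM), and in Htr6 cells Aldh1l1 (1.03 and 0.404 CPM), while 3 of the 4 astrocyte genes were lower in Htr4, Htr2a and Htr2c cells. In Htr6 and in Htr2b cells 2 of the 4 astrocyte genes were lower, and in Htr1f cells 0. The highest summed level of the astrocyte list was the same value, 431 CPM, in Htr7, Htr2c and Htr1f cells. For the choroid plexus list it was the same value, 96.6 CPM, in Htr7, Htr4 and Htr2c cells. The part of single cells with such levels in the higher means of Gja1 and Kl was not tested. Tmem212, Lum and Slc17a7 were at 0 in every cell. The part of other cells in the results was not tested.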

How the data were processed

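Single tdTomato-positive cells were sequenced as Smart-seq2 libraries. The authors aligned reads to mm10 (GRCm38) with STAR 2.6.1a, counted them with HTSeq 0.11.2 in its unstranded mode, left out Y-linked genes and deposited CPM per gene and cell. The annotation version is not given in the sources used here. All 9386862 values above 0 were whole multiples, within 0.001, of the worth of 1 read, so the authors' counts were recovered from the deposited CPM. The labels tie no cell to a brain, so each dissection was 1 sample and no count test was made. Of 1536 labelled cells, 999 were in the table and passed 300 genes and 50000 reads, while 537 labelled cells were not analysed here.

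A gene counted as read from 1 read upward. Shares carry exact Clopper-Pearson 95% intervals and ratios of shares Katz log intervals. A limit for 0 cells is 3 cells over the number of cells. Plates with at least 5 cells on each side were compared. Genes read in at least 3 percent of cells (17566) formed the background, on log2 ratios with a pseudocount of 0.1 CPM. Named genes were the 7 members, the markers, the 5 genes of highest r of at least 0.2 for each member, at most 5 genes of largest ratio of each list, and overlapping genes. Zeb2 in Htr2a cells and Htr1f in the cells with Htr7 and Htr2c were also named after their values were seen. Members and lists were chosen with earlier results of these data known. Python 3.11.15, NumPy 2.4.6, pandas 2.3.3, SciPy 1.17.1 and matplotlib 3.10.9 were used, and the steps were tested on simulated data.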

Additional observations from a re-analysis of the deposited data

How the results depend on the processing

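No paired analysis was possible because no cell, plate or animal number links the dissections. Requiring at least 5 reads in place of 1 moved the shares of cells to 10.0% for Htr7, 5.61% for Htr4, 7.51% for Htr6, 2.20% for Htr2a, 1.30% for Htr2b, 3.70% for Htr2c and 5.31% for Htr1f, and the ratio of shares between dissections to 1.67 for Htr4. Requiring 10 CPM moved them to 8.21%, 3.00%, 4.20%, 2.10%, 0.501%, 2.60% and 3.70% in the same order, the ratio for Htr7 to 0.789, and the number of pairs of gene and marker with a share at least 2 times as high to 10. Thinning every cell to 250000 reads moved the shares to 8.38% for Htr4, 9.19% for Htr6, 3.13% for Htr2b and 6.77% for Htr1f and the number of pairs to 6. The ratio for Htr2c was 0.799 as reported, 1.10 with 5 reads and 1.11 with 10 CPM.

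With each plate left out in turn, the shares lay between 11.3% and 13.4% for Htr7, 9.84% and 11.1% for Htr4, 10.8% and 12.3% for Htr6, 3.14% and 3.72% for Htr2a, 4.75% and 5.42% for Htr2b, 5.75% and 6.61% for Htr2c and 9.48% and 10.5% for Htr1f. The ratios lay between 0.451 and 0.556 for Htr7, 0.929 and 1.17 for Htr4, 0.530 and 0.665 for Htr6, 2.99 and 5.44 for Htr2a, 0.798 and 1.12 for Htr2b, 0.686 and 0.988 for Htr2c and 1.01 and 1.32 for Htr1f, and the number of pairs between 3 and 6. Htr2a with Zeb2 (higher) and Htr7 and Htr4 with Zeb2, Htr4 with Trh and Htr6 with Grik1 (lower) passed the ratio of 2 under every one of these settings and with a marker called from 10 CPM. The other pairs did not. With a plate left out, the ratio lay between 1.73 and 2.21 for Htr7 with the Gad genes (under 2 without SER12, SER13, SER25, SER48, SER51, SER55, SER60 or SER64, and with 5 reads or 10 CPM), between 1.81 (without SER13) and 2.42 for Htr6 with Trh (under 2 also without SER57 and with a marker called from 10 CPM), between 1.66 (without SER60) and 2.57 for Htr2a with Grik1 (under 2 also with 5 reads or 10 CPM), and between 0.304 and 0.572 for Htr2c with Zeb2, which passed without 6 of the 16 plates.

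The number of genes with an r of at least 0.2, 117 over the 7 genes, was 218 in the wider dissection alone and 57 among genes with a mean over 10 CPM. In the pDR dissection alone it was 163, with 3 of the 19 named genes among the 5 highest. There the r was -0.051 for Htr7 and Nmbr, -0.028 for Htr2c and Nmbr and -0.010 for Htr2a and Zeb2, where they were positive over all cells. With a pseudocount of 1 CPM the share of all genes past a log2 ratio of 1 between dissections was 1.26% higher and 2.23% lower. Shares at 1 read are limited by depth, and most for Htr2b. The cause of the other shifts was not tested.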
